A study of Homo sapiens with 7 samples.

Results

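The miR-23, miR-27 and miR-24 clusters are a pair of paralogous groups of microRNA (miRNA) hairpins, 1 on chromosome 19 and 1 on chromosome 9. The 8 mature miRNAs described here, hsa-miR-23a-3p, hsa-miR-23b-3p, hsa-miR-27a-3p, hsa-miR-27a-5p, hsa-miR-27b-3p, hsa-miR-27b-5p, hsa-miR-24-3p and hsa-miR-24-2-5p, were chosen by name (written without the species prefix from here on) from the 2652 miRNAs counted in each library. All 8 passed the minimum mean count of 10 reads that 458 of the 2652 miRNAs passed. They were followed in HepG2, an established human hepatocellular carcinoma line, by small RNA sequencing of 7 libraries. Of these, 6 came from cells given siRNA 1 or siRNA 2 that target TEAD1, through which the Hippo pathway acts on transcription, for 24, 36 or 48 h, with 1 library for each siRNA and time. The remaining library came from untreated cells at 0 h. The genotype label is TEAD1 knockdown for the siRNA-treated libraries and WT for the untreated one. The design addressed which miRNAs depend on TEAD1.

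What these groups can model is limited in several ways. No library of cells given a control siRNA is used here, so effects of transfection, of time in culture and of less TEAD1 cannot be told apart. TEAD1 itself is an mRNA and is not measured in these libraries. The labels do not say whether the libraries came from separate cultures, so the spread behind each p-value is that of these libraries and could be technical. With a single untreated library, its variation was taken to be that of the siRNA-treated groups. In bulk libraries, fewer cells of a type and less RNA per cell cannot be told apart.

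A miRNA hairpin is cropped from a longer transcript in the nucleus and diced in the cytoplasm, which leaves a 5p and a 3p strand. The strand that is loaded into an Argonaute protein pairs with mRNAs mainly through its seed, bases 2 to 8 counted from its 5′ end, and lowers their stability and translation. Each of the clusters is transcribed as 1 precursor that holds a miR-23, a miR-27 and a miR-24 hairpin. miR-23a and miR-23b are known to repress glutaminase, miR-27a and miR-27b to repress PPARG and other regulators of lipid metabolism, and miR-24-3p to repress cell cycle genes such as E2F2 and MYC.

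The sequences below are the mature strands from RefSeq (GRCh38.p14), shown 5′ to 3′ with the seed in capitals, because the paralogs differ so little that the split of reads between them depends on a few bases. The deposited files give the same sequences.
miR-23a-3p: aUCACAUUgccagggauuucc
miR-23b-3p: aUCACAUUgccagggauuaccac
miR-27a-3p: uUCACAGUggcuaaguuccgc
miR-27b-3p: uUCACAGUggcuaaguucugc
miR-27a-5p: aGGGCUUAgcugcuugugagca
miR-27b-5p: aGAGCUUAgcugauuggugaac
miR-24-3p: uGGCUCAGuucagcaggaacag
miR-24-2-5p: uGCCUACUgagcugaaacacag
miR-24-1-5p: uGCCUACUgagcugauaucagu

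Within each 3p pair the seed is shared. miR-27a-3p and miR-27b-3p differ by C19U, and miR-23a-3p and miR-23b-3p by U19A and by 2 extra bases at the 3′ end of miR-23b-3p (first base of the token from the a form, position counted from the 5′ end). The miR-27 5p strands differ at 8 positions, and 1 of these, G3A, lies in the seed. miR-24-3p has the same sequence from both clusters, so its reads cannot be assigned to a chromosome. miR-24-2-5p from chromosome 19 and miR-24-1-5p from chromosome 9 share the seed and differ at 6 positions between 16 and 22. How reads that fit both members of a pair were counted is not given in the sources used here, and the split between miR-27a-3p and miR-27b-3p is uncertain for any read that stops short of base 19.

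The chromosome 19 cluster spans chr19:13836287-13836659 on the minus strand of GRCh38, 373 bases, in the order miR-23a, miR-27a, miR-24-2 along transcription. It lies in the long noncoding RNA gene MIR23AHG of RefSeq and in an exon of the antisense RNA gene AC020916.1 of GENCODE. The chromosome 9 cluster spans chr9:95085208-95086088 on the plus strand, 881 bases, within the protein-coding gene AOPEP, which GENCODE lists as C9orf3. There miR-23b and miR-27b are intronic, and miR-24-1 lies in an exon of 1 transcript that GENCODE classes as a target of nonsense-mediated decay. The miR-27 hairpins are printed below with both mature arms in capitals, because the balance of their arms is one of the measurements that follow. MIR27A lies at chr19:13836440-13836517 on the minus strand and MIR27B at chr9:95085445-95085541 on the plus strand.
MIR27A: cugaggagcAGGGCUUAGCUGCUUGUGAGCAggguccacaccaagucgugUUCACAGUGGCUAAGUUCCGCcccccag
MIR27B: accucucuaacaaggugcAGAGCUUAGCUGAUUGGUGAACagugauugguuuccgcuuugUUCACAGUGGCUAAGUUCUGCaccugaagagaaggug

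The libraries held 13134601 to 15591345 reads, of which 1920832 to 3739729 in siRNA-treated cells and 6171851 in untreated cells were assigned to a miRNA. Reads given to no feature made up 73.5% to 86.6% of the siRNA-treated libraries, against 56.9% of the untreated library. Levels below are CPM, read counts scaled to a fixed total of miRNA reads with factors from the trimmed mean of M-values (TMM), and they describe the makeup of the miRNA pool and not the amount per cell. A count of 0 allows up to 3 reads, which is 0.886 to 1.52 CPM in siRNA-treated cells and 0.559 CPM in untreated cells. The 36 h libraries went against the order of labelled time. By most of the ratios given below, siRNA 1 at 36 h sat with the 24 h and untreated libraries and siRNA 2 at 36 h with the 48 h libraries, but by the ratio of miR-27a-3p to miR-27b-3p siRNA 2 at 36 h sat with the 24 h libraries and siRNA 1 at 36 h did not. Whether 1 of them carries a wrong label could not be checked, and each 36 h value takes the labels as given. The edgeR comparisons of single miRNAs are therefore given with and without the 36 h libraries, while the means over the 6 siRNA-treated libraries, the summed paralogs and the likeness of profiles hold them.

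The 8 miRNAs together took 3.65% to 6.03% of the miRNA reads in siRNA-treated cells and 4.10% in untreated cells. siRNA 1 at 36 h had the highest share and siRNA 1 at 48 h the lowest. Over the 6 siRNA-treated libraries the order of mean levels was miR-27b-3p at 12626 ± 5981 CPM, miR-27a-3p at 12351 ± 5113 CPM, miR-24-3p at 10826 ± 1152 CPM, miR-23a-3p at 3583 ± 482 CPM, miR-23b-3p at 1384 ± 370 CPM, miR-27a-5p at 1249 ± 288 CPM, miR-24-2-5p at 603 ± 79.6 CPM and miR-27b-5p at 65.2 ± 8.51 CPM (SD, n = 6 each). The first 3 lie within each other's spread, as do miR-23b-3p and miR-27a-5p. In untreated cells miR-27a-3p came first, at 16278 CPM. The miR-27 3p strands were the most variable of the 8, with a highest siRNA-treated level 3.50 times the lowest for miR-27b-3p and 2.61 times for miR-27a-3p, against 1.36 times for miR-24-3p.

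**Figure D1:**
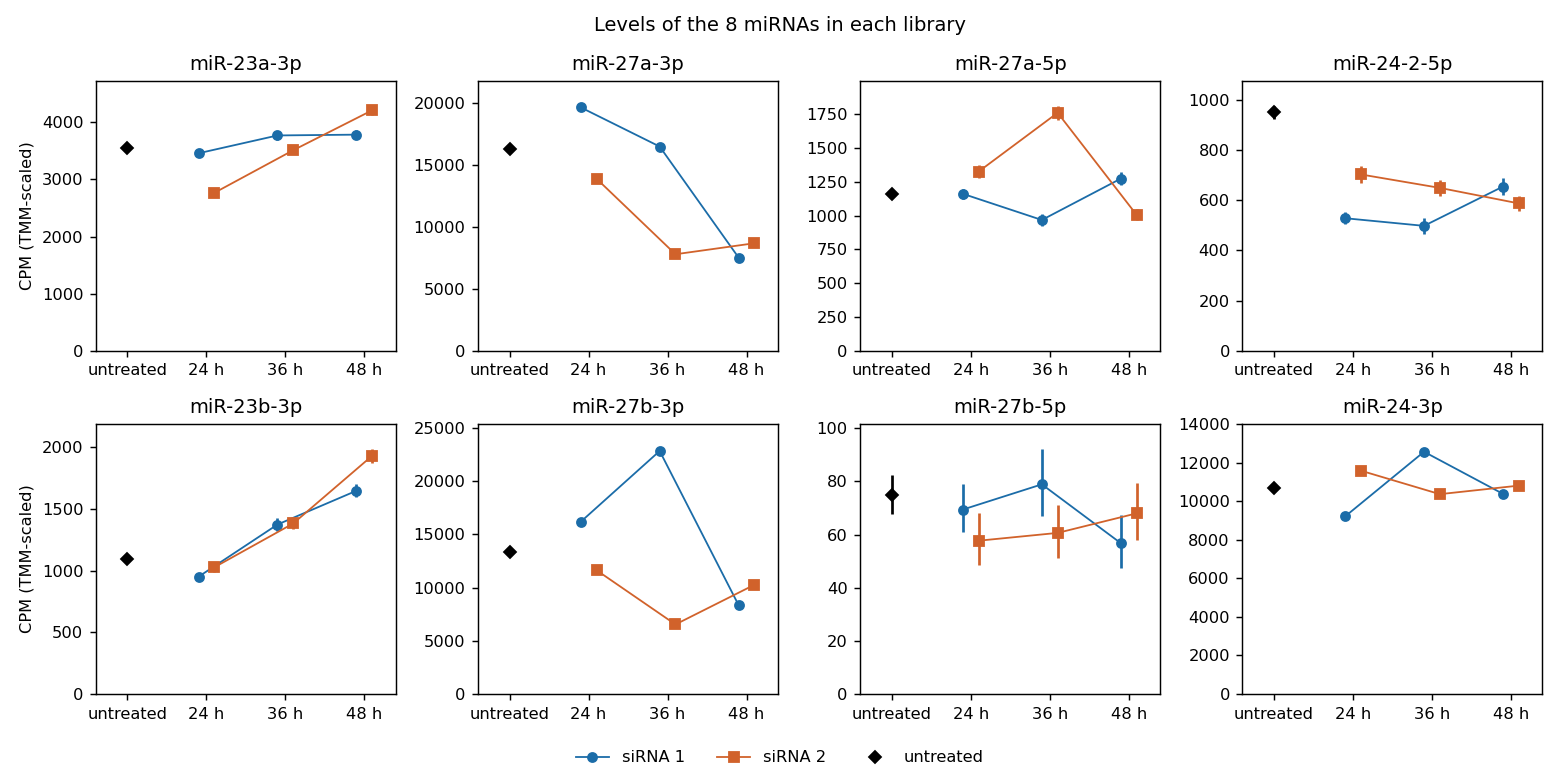
Level of each of the 8 miRNAs (TMM-scaled CPM, linear axes from 0) in the untreated library and after 24, 36 and 48 h of siRNA 1 (circles) or siRNA 2 (squares), with chromosome 19 products in the upper row, chromosome 9 products in the lower row and miR-24-3p, which both clusters encode, at the lower right. Vertical bars are exact 95% binomial intervals for counting error, 1 library per point. miR-23b-3p is higher and both miR-27 3p strands are lower in the 48 h libraries than in the 24 h libraries of either siRNA.

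miR-23a-3p stood at 3558 CPM in untreated cells, at 3458, 3770 and 3784 CPM after 24, 36 and 48 h of siRNA 1, and at 2765, 3511 and 4210 CPM after the same times of siRNA 2. Both 48 h libraries were above both 24 h libraries, and the untreated library lay among the siRNA-treated ones. miR-23b-3p stood at 1093 CPM in untreated cells, at 950, 1373 and 1646 CPM over the 3 times of siRNA 1, and at 1026, 1381 and 1930 CPM over those of siRNA 2. It was higher at each later time with either siRNA, and both 24 h libraries were below the untreated one.

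miR-27a-3p stood at 16278 CPM in untreated cells, at 19674, 16507 and 7528 CPM after 24, 36 and 48 h of siRNA 1, and at 13909, 7799 and 8690 CPM after those of siRNA 2. The 3 lowest libraries were those of 48 h and siRNA 2 at 36 h, and the next lowest was siRNA 2 at 24 h. miR-27b-3p stood at 13343 CPM in untreated cells, at 16172, 22830 and 8342 CPM over the 3 times of siRNA 1, and at 11626, 6529 and 10256 CPM over those of siRNA 2. The same 3 libraries were lowest, and siRNA 1 at 36 h was the highest of the 7.

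The 5p strands of the miR-27 hairpins did not share that pattern. miR-27a-5p stood at 1157 CPM in untreated cells, at 1161, 967 and 1273 CPM over the 3 times of siRNA 1, and at 1326, 1761 and 1005 CPM over those of siRNA 2. Its highest library was siRNA 2 at 36 h, where miR-27a-3p was near its lowest, and its 24 h and 48 h libraries overlapped. miR-27b-5p, the least abundant of the 8 with 130 to 402 reads per library, ranged between 56.8 and 78.9 CPM in siRNA-treated cells and stood at 74.9 CPM in untreated cells (exact 95% interval 67.8 to 82.6), and 5 of its 6 siRNA-treated libraries were below the untreated one.

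miR-24-3p stood at 10702 CPM in untreated cells, at 9214, 12574 and 10388 CPM over the 3 times of siRNA 1, and at 11591, 10372 and 10815 CPM over those of siRNA 2. The 24 h libraries were the lowest and the second highest, so that times overlapped throughout. miR-24-2-5p stood at 951 CPM in untreated cells (exact 95% interval 925 to 978), at 528, 498 and 655 CPM over the 3 times of siRNA 1, and at 703, 649 and 587 CPM over those of siRNA 2. All 6 siRNA-treated libraries were below the untreated one. It was the 1 member of 8 for which this held, and over all tested miRNAs the share was 13.5%, while 0 of 8 were above in all 6, against 10.3% of all tested.

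Treatment over the 3 times was compared with no treatment in 1 fit of all 7 libraries with edgeR's quasi-likelihood test. None of the 8 miRNAs was called at an adjusted p under 0.05, where 0% of the 458 tested were called. At an unadjusted p under 0.05 there were 23 of the 458, none of them a member, and DESeq2 called 1 miRNA, no member. The log2 fold change of siRNA-treated over untreated was -0.66 ± 0.29 (SE) for miR-24-2-5p (edgeR adjusted p = 0.900), -0.46 ± 0.40 for miR-27a-3p and 0.30 ± 0.26 for miR-23b-3p. The other 5 lay between -0.20 and 0.11. Without both 36 h libraries 0 of 8 members were called by edgeR, against 10.7% of 467 tested miRNAs (3.64% higher and 7.07% lower). With all reads of a library as the scale, which moves the median of all miRNAs to -1.13, miR-24-2-5p and miR-27a-3p were called by edgeR, at -1.75 ± 0.52 (SE, adjusted p = 0.0137) and -1.55 ± 0.47 (adjusted p = 0.0150). That is 2 of 8, where 26.2% of the 458 tested miRNAs were called on this scale. In the fit of all 7 libraries with TMM factors, the median over the 8 was -0.05, and that over all tested miRNAs was also -0.05.

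For 48 h against untreated, 0 of 8 members and 0% of all tested miRNAs were called by edgeR, with 53 of 458 at an unadjusted p under 0.05, miR-23b-3p among them. DESeq2 called 12 miRNAs, none of them a member. miR-27a-3p had a log2 fold change of -1.01 ± 0.45 (SE, adjusted p = 0.367), miR-23b-3p one of 0.71 ± 0.29 (adjusted p = 0.367), miR-24-2-5p one of -0.62 ± 0.34 (adjusted p = 0.382) and miR-27b-3p one of -0.52 ± 0.64 (adjusted p = 0.698). The remaining 4 lay between -0.26 and 0.17. Without both 36 h libraries 2 of the 8 were called by edgeR, against 25.1% of 467 tested miRNAs (9.64% higher and 15.4% lower). miR-23b-3p was higher at 48 h by 0.76 ± 0.27 (SE, adjusted p = 0.0269) and miR-27a-3p lower, at -0.96 ± 0.24 (adjusted p = 0.000568). With all reads as the scale on the same libraries, which moves the median of all miRNAs to -1.17, the sign of miR-23b-3p turned, to -0.40 ± 0.57 (edgeR adjusted p = 0.555), and miR-27a-3p stood at -2.12 ± 0.55 (adjusted p = 0.000955). On that scale 4 of 8 members and 39.6% of the 467 tested were called, the others being miR-27b-3p, miR-27b-5p and miR-24-2-5p. With total miRNA counts as the scale, miR-27a-3p was not called, at -0.65 ± 0.31 (edgeR adjusted p = 0.124), and miR-23b-3p, at 1.07 ± 0.29 (adjusted p = 0.00839), was the 1 member called, where 24.6% of the tested miRNAs were.

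The comparison of 48 h with 24 h sets siRNA-treated libraries against each other, so that transfected cells stand on both sides. With all 7 libraries, 0 of 8 members and 0% of tested miRNAs were called by edgeR, with 84 of 458 at an unadjusted p under 0.05, miR-23b-3p and miR-27a-3p among them. DESeq2 called 20 miRNAs, none of them a member. The log2 fold changes were 0.86 ± 0.24 (SE) for miR-23b-3p (adjusted p = 0.244), 0.36 ± 0.23 for miR-23a-3p, -1.05 ± 0.39 for miR-27a-3p (adjusted p = 0.249) and -0.58 ± 0.54 for miR-27b-3p (adjusted p = 0.567). The other 4 lay between -0.13 and 0.03. The 48 h libraries lay outside the range of the 24 h libraries for 4 of the 8, the miR-23 and miR-27 3p strands, and for 61.1% of all tested miRNAs.

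Leaving out the 36 h libraries hardly moved these fold changes and narrowed their errors. Then 3 of the 8 were called by edgeR, against 28.7% of 467 tested miRNAs (10.9% higher and 17.8% lower). miR-23b-3p rose by 0.84 ± 0.22 (SE, adjusted p = 0.000702), while miR-27a-3p fell, at -1.06 ± 0.20 (adjusted p = 2.2e-06), and so did miR-27b-3p, at -0.59 ± 0.20 (adjusted p = 0.0144). miR-23a-3p, at 0.35 ± 0.21, was not called (adjusted p = 0.199), nor were the 5p strands and miR-24-3p. The same 3 were called when either 36 h library alone was left out, and none when any other siRNA-treated library was left out of the fit of all times. The errors of these fits are too small if the spread between the 36 h libraries is real.

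These calls also depend on the scale on which miRNAs are compared. Without the 36 h libraries and with total miRNA counts as the scale, which moves the median log2 fold change of all miRNAs to 0.34, the log2 fold change was 1.20 ± 0.23 for miR-23b-3p (edgeR adjusted p = 0.000201) and -0.71 ± 0.26 for miR-27a-3p (adjusted p = 0.0331), but -0.24 ± 0.26 for miR-27b-3p (adjusted p = 0.484). miR-23a-3p was called on this scale, at 0.70 ± 0.24 (edgeR adjusted p = 0.0235), so that 3 of 8 members were called, against 34.3% of the 467 tested. With all reads as the scale, which moves that median to -0.16, the values were 0.69 ± 0.47 for miR-23b-3p (adjusted p = 0.398), -1.29 ± 0.48 for miR-27a-3p (adjusted p = 0.0514) and -0.81 ± 0.47 for miR-27b-3p (adjusted p = 0.319), and 0 of 8 members were called, against 12.6% of the tested miRNAs.

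**Figure D2:**
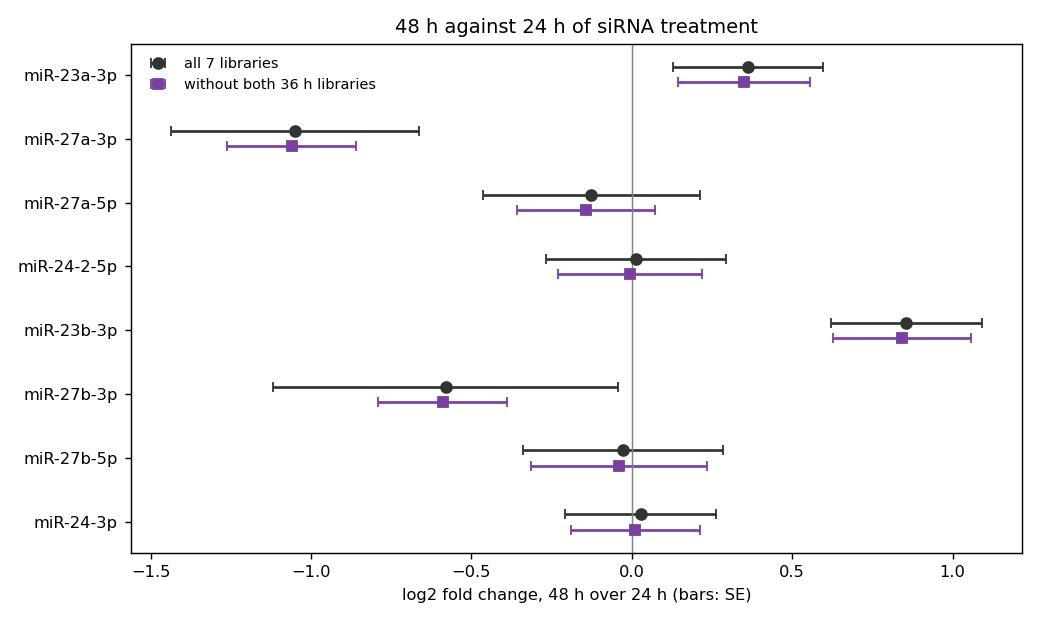
Log2 fold change of 48 h over 24 h of siRNA treatment for each of the 8 miRNAs, from edgeR with TMM factors, with all 7 libraries (circles) and without both 36 h libraries (squares). Bars are standard errors and the vertical line marks no difference; miR-23b-3p lies at 0.86 and 0.84, miR-27a-3p at -1.05 and -1.06, and the miR-24 and 5p strands lie near 0.

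Since the paralogs are nearly identical, their counts were also summed. miR-23a-3p and miR-23b-3p together had a log2 fold change of 0.50 ± 0.23 (SE) at 48 h against 24 h (edgeR adjusted p = 0.283), and miR-27a-3p and miR-27b-3p together one of -0.81 ± 0.46 (adjusted p = 0.379). Both paralogs of each pair changed in the same direction, so the direction of the sum followed from theirs.

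For siRNA 2 against siRNA 1, with time as a factor, 0 of 8 members and 0% of 435 tested miRNAs were called by edgeR, with 6 at an unadjusted p under 0.05 and 0 called by DESeq2. The largest differences among the 8 were those of miR-27b-3p, with a log2 fold change of -0.62 ± 0.42 (SE), and miR-27a-3p, with -0.43 ± 0.30 (adjusted p = 0.992 for each). Without the 36 h libraries they were 0.01 ± 0.33 and -0.05 ± 0.33 (adjusted p = 0.998 for each).

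A ratio of 2 miRNAs within a library does not depend on how libraries are scaled. The clusters' 3p strands kept no fixed ratio. There were 4.57 reads of miR-27a-3p for each read of miR-23a-3p in untreated cells, 5.69, 4.38 and 1.99 after 24, 36 and 48 h of siRNA 1, and 5.03, 2.22 and 2.06 after those of siRNA 2. For the chromosome 9 products miR-27b-3p and miR-23b-3p the ratio was 12.2 in untreated cells, 17.0, 16.6 and 5.07 over the 3 times of siRNA 1, and 11.3, 4.73 and 5.31 over those of siRNA 2. In both clusters the libraries fell into the same sets, with siRNA 1 at 36 h near the 24 h and untreated libraries and siRNA 2 at 36 h near the 48 h libraries.

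The mean log2 ratio of 48 h minus that of 24 h was -1.40 for miR-27a-3p to miR-23a-3p and -1.42 for miR-27b-3p to miR-23b-3p. The siRNAs differed by 0.18 and 0.59 at 24 h and by 0.05 and 0.07 at 48 h on the same log2 scale, so each change was larger than the gap between the siRNAs at either time. At 36 h the gaps were 0.98 and 1.82, and that of miR-27b-3p to miR-23b-3p was larger than its change from 24 h to 48 h. An exact two-sided permutation test gave p = 0.333 for both, which is the smallest that 2 against 2 libraries can give, and 0.333 after Benjamini-Hochberg adjustment over 7 ratios. These ratios were added after the data were seen. For siRNA-treated minus untreated libraries the differences were -0.50 and -0.50 (-0.47 and -0.52 without the 36 h libraries), with p = 0.857 for each (exact permutation, adjusted p = 1), where 6 against 1 can reach 0.143.

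**Figure D3:**
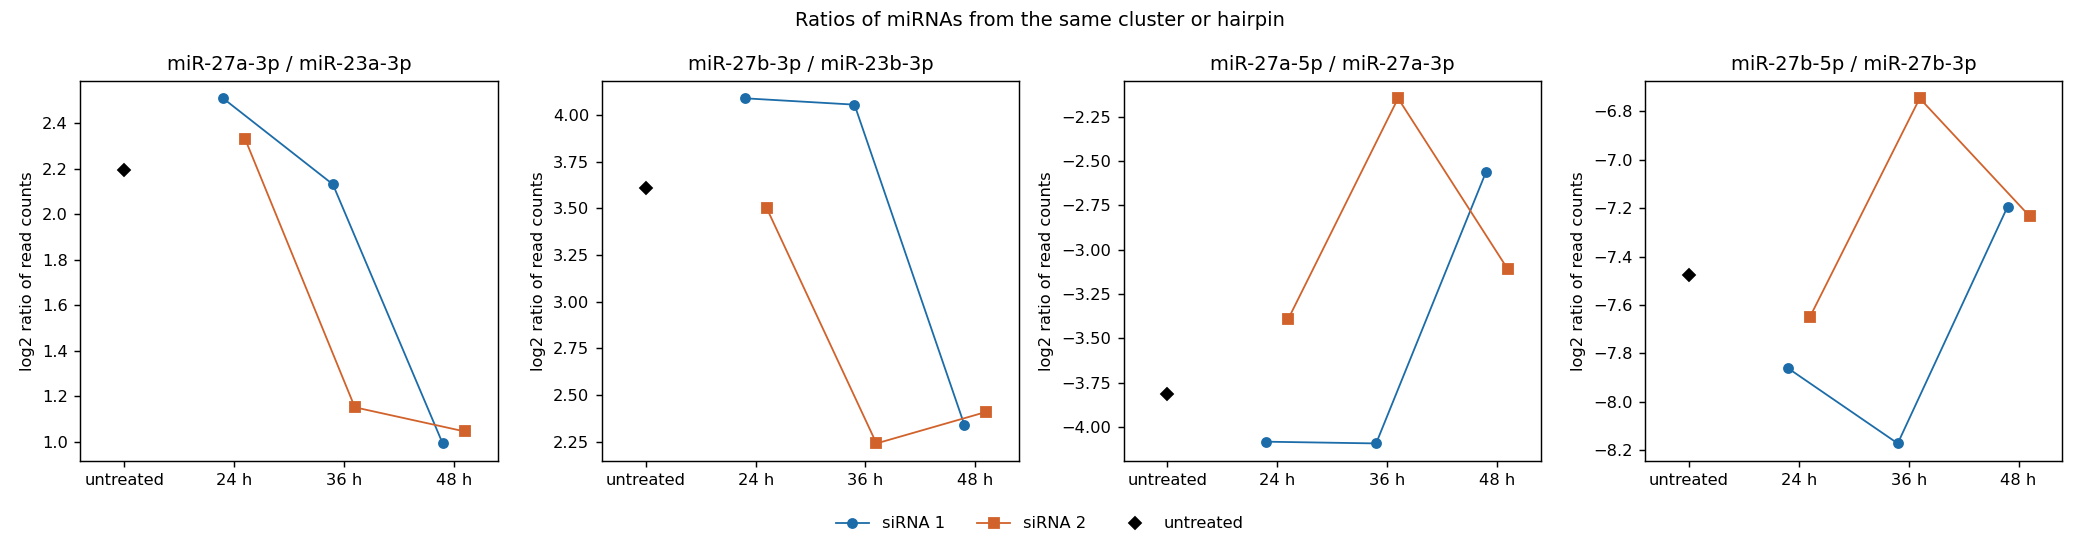
Log2 ratio of read counts of miRNAs from the same cluster (miR-27a-3p to miR-23a-3p and miR-27b-3p to miR-23b-3p) or from the same hairpin (5p to 3p strand of miR-27a and miR-27b) in the untreated library and after 24, 36 and 48 h of siRNA 1 (circles) or siRNA 2 (squares). Axes are on a log2 scale and do not start at 0; the 48 h libraries and siRNA 2 at 36 h stand apart from the other 4 libraries in both panels of miR-27 to miR-23, and adjoin them without overlap in both panels of 5p to 3p strands.

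The balance of arms within the miR-27 hairpins was read in the same way. Of the reads of both miR-27a arms, the 5p strand took 6.63% in untreated cells, 5.57%, 5.54% and 14.5% over the 3 times of siRNA 1, and 8.70%, 18.4% and 10.4% over those of siRNA 2 (the widest exact 95% binomial interval, at siRNA 2 and 36 h, was 17.9% to 18.9%). The log2 ratio of 5p to 3p was higher at 48 h than at 24 h by 0.90 for miR-27a and by 0.54 for miR-27b, with gaps between the siRNAs of up to 0.69 for miR-27a and up to 0.21 for miR-27b at these times (exact permutation p = 0.333 for each, the smallest possible, and 0.333 adjusted over the 7 ratios). At 36 h the gaps between the siRNAs were 1.95 for miR-27a and 1.43 for miR-27b, larger than these differences. Without siRNA 1 at 24 h, the difference of miR-27a was 0.55. The 5p share of miR-27b was far smaller, at 0.345% to 0.920% in siRNA-treated cells and 0.558% in untreated cells. The level of the 5p strand had a log2 fold change of 48 h over 24 h of -0.13 ± 0.34 (SE) for miR-27a and -0.03 ± 0.31 for miR-27b in edgeR's fit of all libraries, against the larger values of the 3p strands above.

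The share of the chromosome 19 paralog was compared next. miR-23a-3p made up 76.5% of the reads of miR-23a-3p and miR-23b-3p in untreated cells (exact 95% interval 76.0% to 77.0%), 78.5%, 73.3% and 69.7% over the 3 times of siRNA 1, and 72.9%, 71.8% and 68.6% over those of siRNA 2. The share was lower at each later time with either siRNA, and 5 of 6 siRNA-treated libraries were below the untreated one. miR-27a-3p made up 55.0% of the miR-27 3p reads in untreated cells, 54.9%, 42.0% and 47.4% over the times of siRNA 1, and 54.5%, 54.4% and 45.9% over those of siRNA 2. Here 4 libraries lay within 1 percentage point of each other and 3, both 48 h libraries and siRNA 1 at 36 h, lay well below them. For miR-27 alone, siRNA 1 at 36 h thus stood apart from the 24 h libraries, beyond the 48 h ones.

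miR-24-2-5p made up 95.2% of the reads of miR-24-2-5p and miR-24-1-5p in untreated cells, 91.0%, 91.7% and 96.5% over the times of siRNA 1, and 91.9%, 97.1% and 96.6% over those of siRNA 2. Among the siRNA-treated libraries that split followed miR-24-1-5p. It stood at 52.3, 45.0 and 24.0 CPM with siRNA 1, and at 61.9, 19.4 and 20.9 CPM with siRNA 2. In untreated cells miR-24-1-5p stood at 48.5 CPM, while miR-24-2-5p, at 951 CPM, was above its level in every siRNA-treated library. From 24 h to 48 h the mean log2 ratio of the chromosome 19 to the chromosome 9 product changed by -0.48 for miR-23, by -0.46 for miR-27 and by 1.36 for the miR-24 5p strands. The direction thus differed between the 3p strands of miR-23 and miR-27 and the 5p strands of miR-24, which are unlike arms. Reads of miR-24-3p cannot be split by chromosome, and miR-24-1-5p had only 47 to 260 reads per library. Whether whole hairpins differ in direction was not tested. The change of miR-23 was close to the gap of 0.43 between the 24 h libraries, and without siRNA 1 at 24 h it was -0.27. Each had an exact permutation p of 0.333, the smallest possible, and 0.333 adjusted over the 7 ratios.

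**Figure D4:**
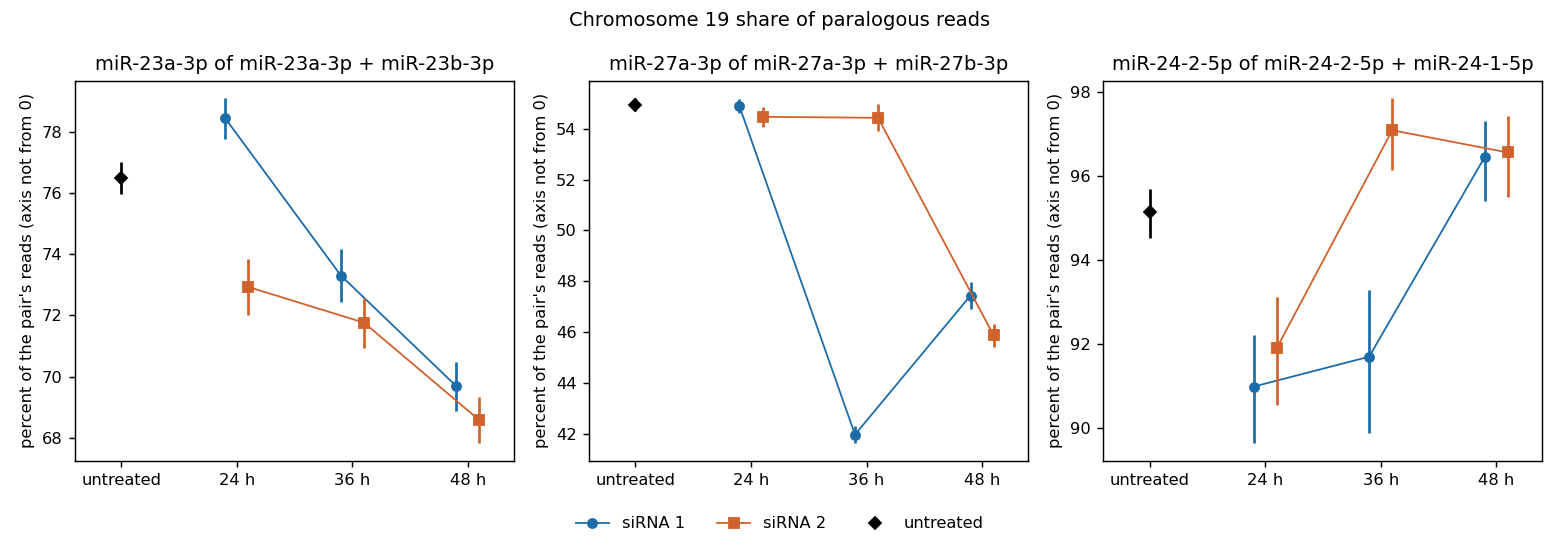
Percent of the reads of each paralogous pair that came from the chromosome 19 member, for miR-23 3p, miR-27 3p and miR-24 5p strands, in the untreated library and after 24, 36 and 48 h of siRNA 1 (circles) or siRNA 2 (squares). Bars are exact 95% binomial intervals for counting error and axes do not start at 0; the chromosome 19 share is lower at 48 h than at 24 h for miR-23 and miR-27 and higher for the miR-24 5p strands.

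The other products of these hairpins and the miRNAs of like seed were followed beside the 8. miR-24-1-5p had a log2 fold change of -1.34 ± 0.45 (SE) at 48 h against 24 h with all libraries (edgeR adjusted p = 0.244) and fell, at -1.36 ± 0.31, without the 36 h libraries (adjusted p = 0.000143). miR-23a-5p and miR-23b-5p, at 7.51 to 19.2 and 10.3 to 16.8 CPM in siRNA-treated cells and 18.3 and 15.7 CPM in untreated cells, were not called in any of these comparisons with or without the 36 h libraries. miR-3074-5p, whose hairpin lies opposite miR-24-1 and which holds a run of 20 bases complementary to miR-24-3p, stood at 2.50 to 8.66 CPM in siRNA-treated cells and 5.96 CPM in untreated cells and was not called either.

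miR-128-3p carries the miR-27 seed shifted by 1 base, as the line below shows with its own seed in capitals (RefSeq, GRCh38.p14). Its seed begins at base 3 of miR-27a-3p and miR-27b-3p, so that some target sites could pair with both.
miR-128-3p: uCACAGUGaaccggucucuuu

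miR-128-3p stood at 3903 CPM in untreated cells, at 3833, 3406 and 7779 CPM after 24, 36 and 48 h of siRNA 1, and at 3816, 7430 and 7165 CPM after those of siRNA 2. The 48 h libraries and siRNA 2 at 36 h were the highest 3, the same libraries in which the miR-27 3p strands were lowest. Its log2 fold change of 48 h over 24 h was 0.97 ± 0.37 (SE, edgeR adjusted p = 0.250) with all libraries, and it rose by 0.95 ± 0.21 without the 36 h libraries (adjusted p = 4.3e-05). In that last fit 10.9% of the 467 tested miRNAs were called higher at 48 h. Both 48 h libraries lay outside the 24 h range for 61.1% of all tested miRNAs. A link between the levels of miR-128-3p and the miR-27 3p strands was not tested. The miR-27 seed itself was found at bases 2 to 8 of 3 miRNAs, the third being miR-9985 at 5.78 to 22.8 CPM in siRNA-treated cells and 14.4 CPM in untreated cells. miR-23c, which shares the miR-23 seed, was as rare, at 1.67 to 11.1 CPM in siRNA-treated cells and 5.22 CPM in untreated cells. miR-24-3p shared its seed with no other listed miRNA.

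The profiles of the 8 over the 7 libraries were compared with those of 275 miRNAs that averaged at least 50 reads, by the root-mean-square difference of centred log2 CPM values, where a smaller value means a closer match. These are descriptions over 7 points that share library and depth. The nearest to miR-23a-3p were miR-92b-3p at 0.0690 and miR-30d-5p at 0.0999, and those to miR-23b-3p were miR-130b-5p at 0.142 and miR-345-5p at 0.146. miR-27a-3p was nearest to miR-148b-5p at 0.154 and miR-103a-3p at 0.156, and miR-27b-3p to miR-26b-5p at 0.161 and miR-31-5p at 0.166. No member was nearest to another member. Of the 275, miR-27a-3p ranked 13 in closeness to miR-27b-3p, and miR-27b-3p ranked 28 in closeness to miR-27a-3p. For the miR-23 3p strands the ranks were 23 for miR-23a-3p to miR-23b-3p and 62 for the reverse. The miR-27 3p strands differed from each other by 0.289, the miR-23 3p strands by 0.243, and miR-27a-3p from its cluster mate miR-23a-3p by 0.619, which is close to its median of 0.612 over all compared miRNAs. For the other 4 the nearest were miR-99b-3p for miR-27a-5p at 0.145, miR-105-3p for miR-27b-5p at 0.109, miR-1287-5p for miR-24-3p at 0.122 and miR-941 for miR-24-2-5p at 0.191.

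Marker miRNAs of the labelled cell type and of other cell types were read in the same libraries. The 4 hepatocyte miRNAs summed to 16102 to 27464 CPM in siRNA-treated cells and 21012 CPM in untreated cells. Most of that sum was miR-148a-3p, at 13919 to 25518 CPM in siRNA-treated cells and 18414 CPM in untreated cells. The 48 h libraries held 3064 and 2917 CPM of miR-192-5p and the 24 h libraries 2177 and 1873 CPM. miR-194-5p stood at 68.6 to 136 CPM in siRNA-treated cells and 73.1 CPM in untreated cells. miR-122-5p, the most abundant miRNA of normal hepatocytes, was low throughout, at 45.5 CPM in untreated cells, at 32.2, 47.6 and 4.37 CPM over the times of siRNA 1, and at 4.60, 6.60 and 3.75 CPM over those of siRNA 2. The 7 endothelial and fibroblast miRNAs summed to 460 CPM in untreated cells and to 444 to 507 CPM in the 24 h libraries. Their sum was highest in the 36 h libraries, at 1067 and 1068 CPM. It stood at 837 and 840 CPM in the 48 h libraries. Most of it was miR-143-3p and miR-126-3p. The 24 h libraries held 164 to 196 CPM of miR-143-3p and the 48 h ones 386 to 446 CPM. For miR-126-3p these ranges were 237 to 334 CPM and 373 to 437 CPM. Among the rarer members, miR-145-5p and miR-199a-3p were also higher in the 48 h libraries, miR-199a-5p overlapped, and miR-126-5p and miR-214-3p were not higher. The 5 blood miRNAs summed to 14.2 to 76.7 CPM in siRNA-treated cells and 14.2 CPM in untreated cells, with miR-223-3p at 0 reads in every library. The 3 muscle miRNAs summed to 876 CPM in siRNA 1 at 36 h, where the highest level of miR-27b-3p also lay. Of that sum 867 CPM was miR-1-3p alone, with miR-133a-3p at 2.53 CPM and miR-206 at 6.58 CPM. The sum stayed between 21.0 and 52.8 CPM in the other siRNA-treated libraries and at 23.1 CPM in untreated cells. The 3 neuronal miRNAs summed to 40.0 to 51.4 CPM in siRNA-treated cells and 34.3 CPM in untreated cells, with miR-124-3p at 0 reads throughout. The part of any of these lists in the differences among the 8 miRNAs was not tested.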

How the data were processed

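Small RNA was sequenced from 7 HepG2 libraries. Per the labels' protocols, total RNA was taken with a column kit and libraries were made with an adapter-ligation kit, whose bias differs between sequences, so levels are better compared between libraries than between miRNAs. Each library has 1 file, in which the authors deposited the raw read count of every mature miRNA, 2652 in all, followed by 5 summary lines. Which aligner, counter and build were used is not given in the sources used here. Summary lines were not tested and entered library sizes only in the alternative that scales by all reads, and reads given to no feature were 56.9% to 86.6% of a library. The members and lists were chosen with earlier results of these data known.

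After TMM scaling, the 458 miRNAs that averaged at least 10 reads were tested with edgeR 4.0.16 in R 4.3.3 (quasi-likelihood F-test, Benjamini-Hochberg adjustment, threshold 0.05). The 3 times and the untreated library were groups of 1 fit. siRNA 2 was set against siRNA 1 in the 6 siRNA-treated libraries, with time as a factor. Standard errors are those whose squared ratio to the log2 fold change equals the F statistic. Log2 CPM used a prior count of 2. Ratios had 0.5 added to each count and were tested by exact permutation. Intervals are exact at 95% and cover counting error only, since reads are not independent molecules. All 8 members and 7 companions were named by rule. The companions were the other products of these hairpins, the antisense miR-3074 entries, of which miR-3074-3p had 0 to 10 reads and was not tested, and miRNAs of like seed. Alternatives were DESeq2 1.42.0, other scales and filters, summed paralogs, libraries left out and the siRNA number as a block. A fit without the 36 h libraries on 2 other scales was added after the data were seen. The fitting steps were tested on simulated counts.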

Additional observations from a re-analysis of the deposited data

Results flagged for a closer look

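For 4 of the 8 miRNAs the difference in log2 CPM of 48 h minus 24 h had the opposite sign with the 2 siRNAs. Each difference came from 1 library per siRNA and time, and the difference between the siRNAs was not tested. The share of all tested miRNAs with opposite signs is not given here, so the count is not a result about these members. miR-27a-5p changed by -0.40 with siRNA 2 and by 0.13 with siRNA 1. miR-27b-5p changed by 0.23 with siRNA 2 and by -0.29 with siRNA 1. miR-24-3p changed by -0.10 with siRNA 2 and by 0.17 with siRNA 1. miR-24-2-5p changed by -0.26 with siRNA 2 and by 0.31 with siRNA 1. The miR-23 and miR-27 3p strands are not among them, which follows from their 48 h libraries not overlapping the 24 h ones. Such a lack of overlap held for 61.1% of all tested miRNAs.

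Reads given to no miRNA, which entered none of the comparisons, made up at least 73.5% of every siRNA-treated library, against 56.9% of the untreated library. Their part in the levels given here was not tested beyond the use of all reads as the scale.

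None of the 15 sets of values tested for a library far from the rest of its group, the 8 levels and the 7 ratios over the 6 siRNA-treated libraries, held one. Each set pooled the 3 times, so the libraries of 1 time were not compared with each other. At 36 h their log2 ratios of miR-27a-5p to miR-27a-3p differed by 1.95.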

How the results depend on the processing

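Calls depended on the 36 h libraries, the scale and the count filter. Leaving out 1 siRNA-treated library at a time gave 0 to 65 calls for all times against untreated, 0 to 113 for 48 h against untreated and 0 to 131 for 48 h against 24 h, with 0 to 1, 0 to 2 and 0 to 3 of the 8 members. Every nonzero value came from leaving out a 36 h library. For all times, miR-27a-3p was called without siRNA 1 at 36 h (log2 fold change -0.65, edgeR adjusted p = 0.0262) and miR-24-2-5p without siRNA 2 at 36 h (-0.73, adjusted p = 0.0396). Without both 36 h libraries the calls were 50, 117 and 134, with 0, 2 and 3 members. On that set with total counts as the scale they were 27, 115 and 160 (0, 1 and 3 members), and with all reads as the scale 196, 185 and 59 (4, 4 and 0 members). With all 7 libraries and 458 tested miRNAs, DESeq2 called 1, 12 and 20, and all reads as the scale gave 120, 118 and 29 (2, 3 and 0 members). With no count filter 1560 miRNAs were tested, and edgeR called 12, 39 and 51 of them. These held 0, 0 and 1 member, miR-27a-3p at 48 h against 24 h (-1.07, edgeR adjusted p = 0.0284). The median miRNA stood at -1.13, -1.14 and -0.15 on the scale of all reads, and on that of total counts at 0.19, 0.33 and 0.37. No setting called a miRNA between siRNA 2 and siRNA 1. The cause of these changes was not tested.

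The sign of several fold changes turned, none of them called in the fit of all 7 libraries. For all times against untreated, all reads as the scale gave -1.07 for miR-23a-3p, -0.79 for miR-23b-3p, -1.09 for miR-24-3p and -0.97 for miR-27a-5p (-1.02, -0.74, -1.07 and -0.997 without the 36 h libraries). Total counts gave 0.12 for miR-27b-3p and 0.035 for miR-27b-5p, and no count filter -0.083 for miR-23a-3p and -0.073 for miR-24-3p. For 48 h against untreated, all reads gave -0.95 for miR-23a-3p and -0.40 for miR-23b-3p with and without the 36 h libraries, so the sign of miR-23b-3p against untreated cells, called as higher without the 36 h libraries, depends on the scale. DESeq2 and its size factors gave 0.057 for miR-24-3p and 0.045 for miR-27a-5p, dropping both 36 h libraries gave 0.033 and 0.023, and total counts gave 0.34 and 0.33 with and without the 36 h libraries and 0.096 for miR-27b-5p. For 48 h against 24 h, total counts gave 0.21 for miR-27a-5p and 0.31 for miR-27b-5p with and without the 36 h libraries. A mean count of at least 50 gave -0.026 for miR-24-2-5p and -0.009 for miR-24-3p, all reads gave -0.13 and -0.12 with and without the 36 h libraries, and miR-24-2-5p was at -0.0097 with no count filter and -0.0052 without the 36 h libraries. For siRNA 2 against siRNA 1, dropping the 36 h libraries gave 0.017 for miR-23a-3p, 0.012 for miR-27b-3p and 0.094 for miR-27b-5p. With total counts as well miR-27a-5p was at -0.079, and with all reads as well miR-23b-3p was at -0.082, miR-24-2-5p at -0.12, miR-24-3p at -0.058 and miR-27a-5p at -0.33.

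With 1 library left out at a time, a time with 1 library left was assumed to vary like the other groups. For all times against untreated the range was -0.054 to 0.078 for miR-23a-3p, -0.060 to 0.25 for miR-27a-5p, -0.47 to 0.10 for miR-27b-3p and -0.019 to 0.067 for miR-24-3p. For 48 h against untreated it was -0.20 to 0.14 for miR-27a-5p and -0.042 to 0.028 for miR-24-3p. For 48 h against 24 h it was -0.31 to 0.035 for miR-27a-5p, -0.16 to 0.11 for miR-27b-5p, -0.13 to 0.26 for miR-24-3p and -0.18 to 0.28 for miR-24-2-5p, while miR-23b-3p kept 0.74 to 0.97, miR-27a-3p -1.22 to -0.78 and miR-27b-3p -0.74 to -0.33. For siRNA 2 against siRNA 1 it was -0.20 to 0.078 for miR-23a-3p, -0.029 to 0.58 for miR-27a-5p, -0.31 to 0.065 for miR-27b-5p and -0.082 to 0.27 for miR-24-3p. The log2 ratio of siRNA-treated minus untreated ranged from -0.32 to 0.022 for miR-24-2-5p to miR-24-1-5p and from -0.15 to 0.14 for miR-27b-5p to miR-27b-3p, where a pseudocount of 2 gave 0.0074.

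The siRNA number did not pair the libraries. Deviations from the group means correlated at 0.10 between 24 and 36 h, -0.25 between 24 and 48 h and -0.16 between 36 and 48 h over 458 miRNAs. With the siRNA number as a replicate block, edgeR called 0 miRNAs and 0 members in each comparison, and 48 h against 24 h gave 0.85 for miR-23b-3p and -0.99 for miR-27a-3p. Without time as a factor, siRNA 2 against siRNA 1 also had 0 calls. Depth limited miR-27b-5p most, at 130 to 402 reads.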
